A study of Mus musculus with 6 samples.

Results

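The genes described here encode subunits of the sodium pump (Na+/K+-ATPase) in mouse synovial fibroblasts (SFs), which form the lining of the joint. They are 8 of the 49548 genes in the table, chosen by name: the FXYD genes Fxyd1, Fxyd2, Fxyd5, Fxyd6 and Fxyd7 and the beta subunit genes Atp1b1, Atp1b2 and Atp1b3. The list was drawn up because Fxyd2 differed between treated and untreated cells in these same libraries, so the values of the 8 genes are given as a description, with no p-value. The SFs came from ankle joints of hTNFtg mice, which carry a human TNF transgene and develop arthritis. Per the study's methods the mice were 8 weeks old, and the cells were freed with collagenase, depleted of CD45+ (white blood) cells and cultured. One group of 3 libraries was left untreated and the other of 3 received 500 μM amisulpride, a drug that blocks dopamine and serotonin receptors, for 48 hours. Cells of both groups carried the transgene. The labels give no treatment for the controls where the methods speak of vehicle, so an effect of the solvent and one of the drug cannot be told apart here.

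The sodium pump moves sodium out of the cell and potassium into it, at the cost of ATP. Its alpha subunit carries out the transport, and its beta subunit, a glycoprotein, is needed for the pump to fold and reach the cell surface. FXYD proteins are small membrane proteins that bind the pump and tune its affinity for ions in a tissue-specific way. Fxyd2, the gamma subunit, is best known from the kidney tubule, Fxyd1 (phospholemman) from heart and muscle, and Fxyd6 and Fxyd7 from the nervous system. Fxyd5 (dysadherin) is also linked to cell adhesion.

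The family is named after a short motif, and its codons are shown because they are what the 5 FXYD genes have in common in sequence. Each line gives 27 coding bases, 5′ to 3′ on the gene's own strand, from a GENCODE vM21 transcript on GRCm38 (mm10). Capitals mark the 15 bases that encode proline, phenylalanine, a variable residue, tyrosine and aspartate.
Fxyd1: ccggatCCATTCACCTACGATtaccac
Fxyd2: gagaatCCCTTCGAGTACGACtatgaa
Fxyd5: aacaacCCCTTCTACTACGATgatact
Fxyd6: aaggatCCTTTCTATTACGACtaccag
Fxyd7: acagatCCTTTTTTCTATGACtatgcc
In each gene an intron interrupts the 27 bases. They span chr7:31053467-31053911 (minus strand) in Fxyd1, chr9:45408126-45408307 (plus strand) in Fxyd2, chr7:31035276-31035404 (minus strand) in Fxyd5, chr9:45390654-45390784 (plus strand) in Fxyd6 and chr7:31045020-31047391 (minus strand) in Fxyd7. Of the 15 motif bases, Fxyd2 shared 12 with Fxyd5, 12 with Fxyd6, 10 with Fxyd1 and 9 with Fxyd7.

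Values are normalised counts, that is, read counts after the authors' scaling for library size, rounded by them to whole numbers. Libraries held approximately 2.52 to 4.71 M reads, estimated from the spacing of low values, and a floor of 3 reads corresponded to 2.50 to 5.37 normalised counts. The estimate for untreated replicate 1 is uncertain. Amisulpride replicate 3 was the shallowest library and lay apart from the other 5 on the leading principal component, which carried 37.1% of the variance. All 11 fibroblast markers examined were detected. All 8 myeloid markers also passed the filter on low values (at least 10 in at least 3 libraries). Their summed levels, mostly from Lyz2, were 2236 to 3852 in untreated and 2031 to 3908 in treated libraries.

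Fxyd2 had 129, 111 and 120 normalised counts in untreated replicates 1, 2 and 3, and 2, 0 and 4 in amisulpride replicates 1, 2 and 3. All treated values lay at or under the floor of their library, so Fxyd2 was readily detected in untreated SFs and not distinguishable from absence in treated ones. The means were 120 ± 9 and 2 ± 2 (SD, n = 3). In these bulk samples, fewer cells that express a gene and less of its RNA per cell cannot be told apart. Converted to approximate reads, Fxyd2 had 381 in the untreated and 4 in the treated libraries together. The level per library was thus 72.8 times as high in untreated as in treated SFs, with an exact 95% counting interval of 28.2 to 269, which covers counting error only. The log2 difference, on the scale of log2(normalised count + 1), was -5.61 ± 0.58 (SE). Its size depends on the added constant, since so few treated reads remain, and it was -4.20 with 5 added in place of 1. It was -6.12 without amisulpride replicate 3.

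The untreated level of Fxyd2 was even across libraries. Its coefficient of variation was 7.5%, against a median of 18.6% over the 8692 genes with at least 30 normalised counts in each untreated library, and 11.0% of these genes varied less. Fxyd2 ranked 4918 in the table by untreated mean. Of the 8692 genes it was the only 1 with all treated values at or under the floor, and it had the lowest ratio of treated to untreated mean. These ranks describe the values for which the gene was chosen.

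Fxyd2 (ENSMUSG00000059412) lies at chr9:45399669-45410278 on the plus strand of mm10. No other gene in the table overlaps it, and Fxyd6 ends 3510 bases before it on the same strand. GENCODE vM21 lists 13 Fxyd2 transcripts, of which 4 are protein coding with 4 different starts. A total of 6 transcripts end within 100 bases of the end of the gene. Because reads were counted per gene, the value of Fxyd2 does not separate these isoforms.

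Few reads came, in either group, from genes that lie wholly within 250 kb of Fxyd2. Genes that cross this limit were not counted. Of the 14 other genes in the table wholly within it, 4 had a value above 0 in some library and 1 passed the filter. The latter was Tmprss13, a membrane-bound serine protease gene, with 42, 22 and 17 normalised counts in untreated and 22, 24 and 20 in treated libraries. Its groups overlapped, with a log2 difference that turned from negative to positive (0.17) without untreated replicate 1. Il10ra, which encodes a chain of the IL-10 receptor, had 22, 1 and 6 in untreated and 2, 1 and 0 in treated libraries. The pseudogene RP24-166B2.5 did not exceed 4.

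**Figure D1:**
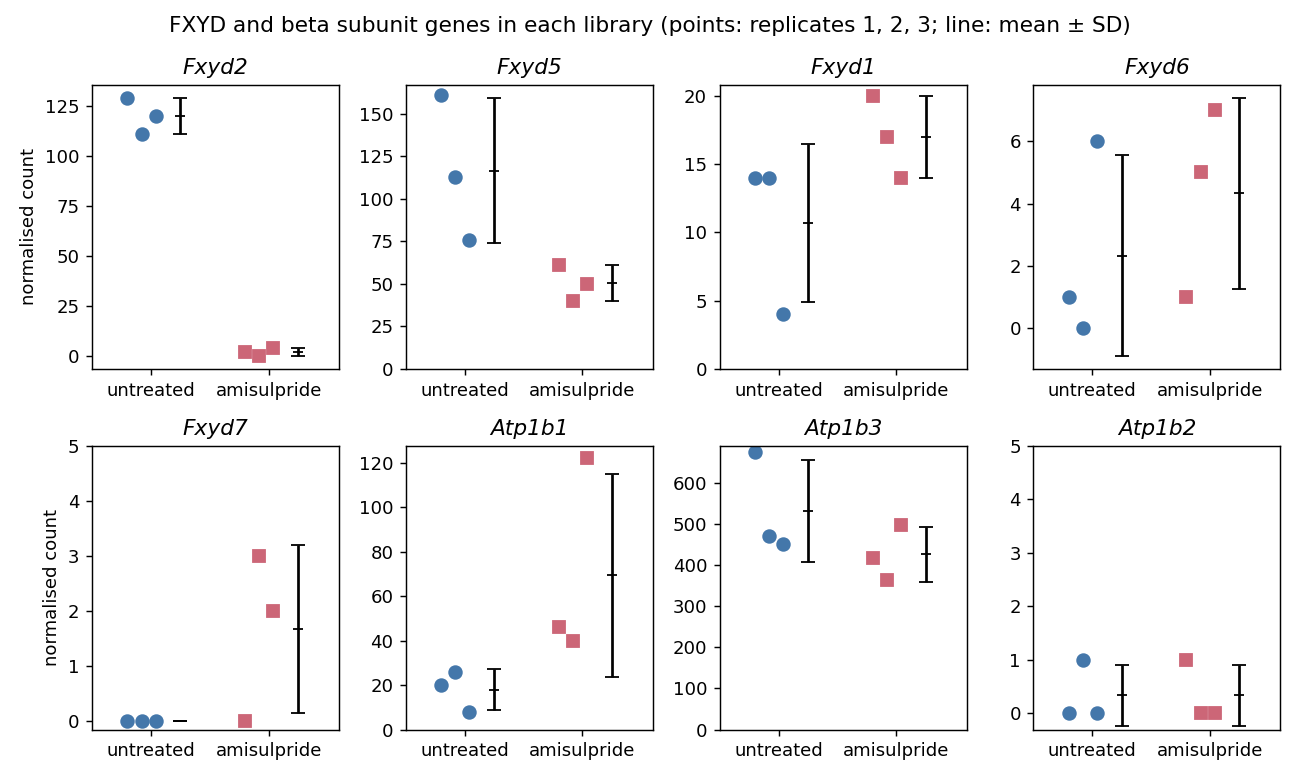
Normalised counts (vertical axis, linear, a separate scale for each gene) of the 8 genes in untreated (circles) and amisulpride (squares) libraries, with the mean ± SD of 3 libraries beside the points. The groups lie apart for Fxyd2, Fxyd5 and Atp1b1, and the treated Fxyd2 values lie between 0 and 4.

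Among the other FXYD genes, Fxyd5 was also lower in treated SFs, by a smaller margin than Fxyd2. Fxyd5 (ENSMUSG00000009687) had 161, 113 and 76 normalised counts in untreated and 61, 40 and 50 in treated libraries. The groups did not overlap, although the lowest untreated library was closer to the treated libraries than to the highest untreated one. The means were 116.7 ± 42.6 and 50.3 ± 10.5 (SD, n = 3), a log2 difference of -1.15 ± 0.33 (SE). Leaving out single libraries gave -1.42 to -0.89. The microRNA gene Mir7050 lies within Fxyd5 and was at 0 in every library.

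Fxyd1 had a higher mean in treated SFs, 17 ± 3 against 10.7 ± 5.77 in untreated ones (SD, n = 3), but the groups were not separate. It had 14, 14 and 4 normalised counts in untreated and 20, 17 and 14 in treated libraries. The groups touched at 14, and the treated value was higher in 3 of 3 pairs of libraries with the same replicate number. The log2 difference was 0.78 ± 0.56 (SE). It rested largely on untreated replicate 3, without which it was 0.25.

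Fxyd6 and Fxyd7 did not pass the filter. Fxyd6 had 1, 0 and 6 normalised counts in untreated and 1, 5 and 7 in treated libraries. It exceeded the floor in untreated replicate 3 and amisulpride replicates 2 and 3, so single libraries of both groups held it at a low level. Fxyd7 was at 0 in all untreated libraries and had 0, 3 and 2 in treated ones, never above the floor. Fxyd5, Fxyd7 and Fxyd1 lie next to each other on the minus strand of chromosome 7, with gaps of 32 and 211 bases between them. Of these neighbours, Fxyd5 was lower, Fxyd1 overlapped between the groups and Fxyd7 was not detectable at this depth.

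The mix of FXYD transcripts thus differed between the groups. The summed normalised counts of the FXYD genes were 249.7 ± 50.5 in untreated and 75.3 ± 9.61 in treated libraries (SD, n = 3). Fxyd2 made up 49.1% ± 8.28 of this sum in untreated and 2.52% ± 2.60 in treated SFs. The share of Fxyd5 was 45.7% ± 8.10 and 66.3% ± 5.69, and that of Fxyd1 4.14% ± 2.01 and 22.7% ± 4.11. The larger shares of Fxyd5 and Fxyd1 under amisulpride accompanied a smaller sum, and the Fxyd5 level itself was lower. Reads come from 1 end of each transcript, so these shares were not corrected for length.

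**Figure D2:**
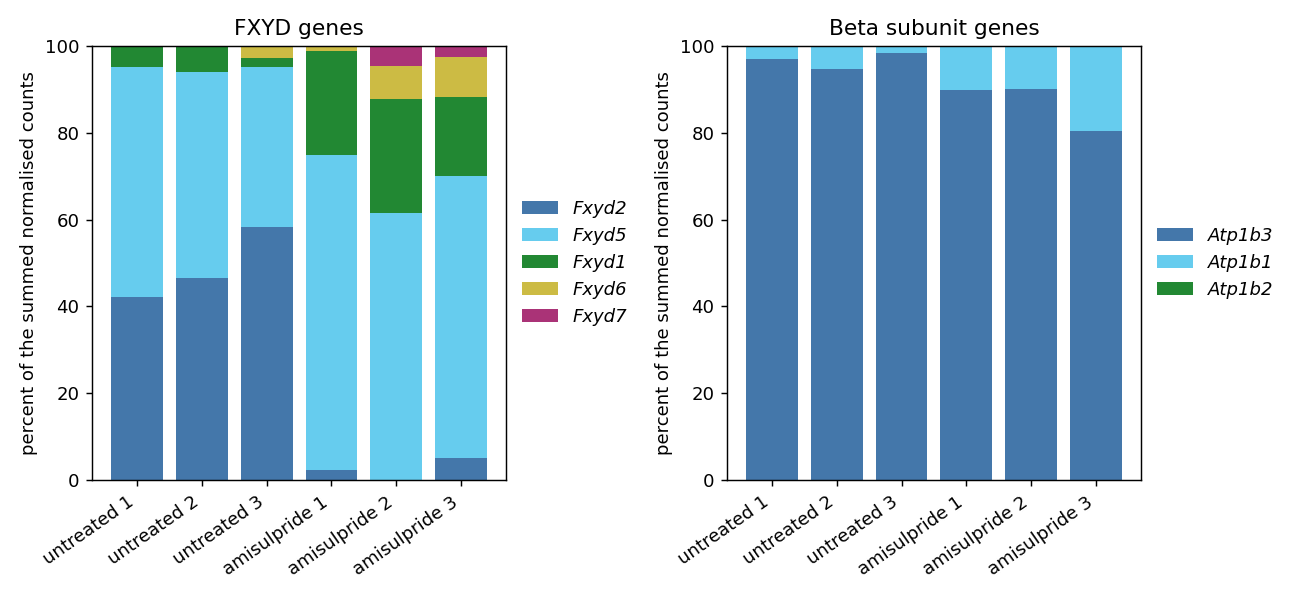
Percent of the summed normalised counts (vertical axis) taken by each FXYD gene (left) and each beta subunit gene (right) in the 6 libraries, as stacked bars. Fxyd2 takes 49.1% on average in untreated and 2.52% in treated libraries, and Atp1b1 takes 3.28% and 13.2% of the beta sum.

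The beta subunit gene Atp1b1 was higher in treated SFs. Atp1b1, the beta subunit of the pump found in most tissues, had 20, 26 and 8 normalised counts in untreated and 46, 40 and 122 in treated libraries. The groups did not overlap, and amisulpride replicate 3 was far above the other libraries. The means were 18 ± 9.17 and 69.3 ± 45.7 (SD, n = 3), a log2 difference of 1.85 ± 0.52 (SE). Without amisulpride replicate 3 it was 1.35.

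The 3′ end of Atp1b1 (chr1:164437109-164458355, minus strand) overlaps that of Nme7, a gene on the plus strand, by 617 bases. The strand setting of the authors' counting is not given in the sources used here, so reads of both genes in the overlap may not have been told apart. Nme7, singled out here after its values were seen, had 19, 18 and 28 normalised counts in untreated and 8, 8 and 7 in treated libraries. It was thus lower where Atp1b1 was higher, with a log2 difference of -1.36 ± 0.46 (SE). The adjusted p of Nme7 in limma was 0.281, and 0.206 with the replicate number as a block.

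Atp1b3, another beta subunit, did not differ between the groups beyond the spread of its libraries. It had 674, 471 and 450 normalised counts in untreated and 417, 364 and 496 in treated libraries, and the groups overlapped. The means were 531.7 ± 124 and 425.7 ± 66.4 (SD, n = 3), a log2 difference of -0.31 ± 0.26 (SE). Atp1b2, known from brain, did not exceed 1 in any library. Atp1b1 made up 3.28% ± 1.77 of the beta sum in untreated and 13.2% ± 5.66 in treated SFs, with nearly all of the rest from Atp1b3. The beta sum itself was 550 ± 126 and 495.3 ± 110, a difference within the spread between libraries.

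In counts, 5 of the 8 genes passed the filter and the groups lay apart for 3 of them, against 16.5% of the 12614 genes tested. At the study's thresholds (an absolute log2 difference of at least 1 and an unadjusted p under 0.05), 2 of the 5 (Fxyd2 and Fxyd5) were lower, against 3.01% of all genes tested, and 1 (Atp1b1) was higher, against 2.69%. With limma's adjusted p under 0.05 as the limit, 1 of the 5 (Fxyd2) was called, against 0.285% of all genes tested. The list was chosen on this contrast, so nothing is read from these counts. The median log2 difference over all genes tested was 0.00155.

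Among further subunit genes of the pump, Atp1b4, Fxyd3 and Fxyd4 were at 0 in every library, and Atp1a4 did not exceed 1 normalised count in any.

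**Figure D3:**
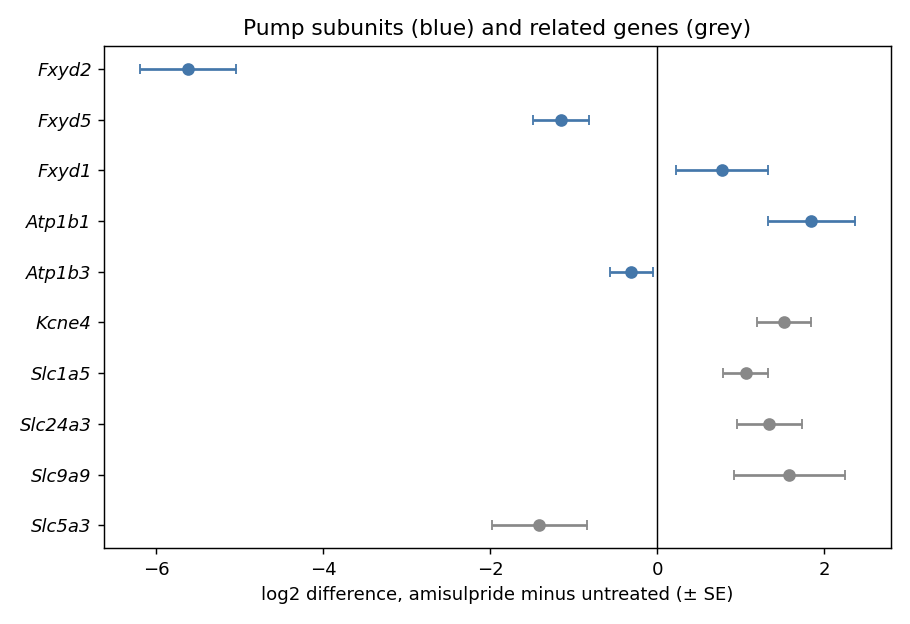
Log2 difference between amisulpride and untreated SFs (horizontal axis, on the scale of log2(normalised count + 1), bars ± SE) for the 5 genes that passed the filter (blue) and for the 5 related genes past the study's thresholds (grey). Fxyd2 lies at -5.61, and Atp1b1 at 1.85.

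Genes that work with the pump, or depend on the sodium gradient that it builds, were compared as 6 lists with 109 genes in all. Of these, 61 passed the filter, 23 with a higher and 38 with a lower mean log2 value in treated SFs, where 49.9% of all genes tested were lower. At the study's thresholds 4 were higher and 1 lower, against 2.69% and 3.01% of all genes tested. None had an adjusted p under 0.05 in limma, against 0.285% of all genes tested. With the replicate number as a block, 2 had an adjusted p under 0.05, namely Kcne4 (0.0364) and Slc9a9 (0.0226), as did 263 of the 12614 genes tested (2.08%). A share of 2 in 61 is near that background.

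By list, the pump partners and regulators had 11 genes tested and none past the study's thresholds, with a median log2 difference of -0.04, but 2 passed them without amisulpride replicate 3. Of the sodium-coupled transporters, 26 were tested, and 3 were higher and 1 lower at these thresholds (median -0.16). This count of 4 was 2 without untreated replicate 1, untreated replicate 3, amisulpride replicate 2 or amisulpride replicate 3. Of the potassium and volume-regulated channels, 12 were tested and 1 was higher (median -0.24), with 2 genes past the thresholds without untreated replicate 1 or amisulpride replicate 3. The other P-type ATPases (9 tested, median -0.11) and the sodium channel subunits (2 tested, median -0.22) had none, except for 1 of the other P-type ATPases without untreated replicate 3. These medians stand beside 0.00155 over all genes tested.

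Kcne4, an accessory subunit of potassium channels, had 19, 17 and 18 normalised counts in untreated and 56, 50 and 54 in treated libraries. The groups lay well apart, with a log2 difference of 1.52 ± 0.32 (SE) and an adjusted p of 0.0777 in limma. Slc1a5, a sodium-coupled carrier of neutral amino acids such as glutamine, had 84, 64 and 102 in untreated and 178, 166 and 172 in treated libraries. It also did not overlap between the groups, and its log2 difference of 1.06 ± 0.27 (SE) had an adjusted p of 0.140. Slc24a3, a sodium/calcium and potassium exchanger, had 115, 95 and 69 in untreated and 217, 137 and 424 in treated libraries. The groups did not overlap, with a log2 difference of 1.35 ± 0.39 (SE) and an adjusted p of 0.206, and it was 0.91 without amisulpride replicate 3. Slc9a9, a sodium/hydrogen exchanger of endosomes, had 20, 110 and 35 in untreated and 46, 210 and 227 in treated libraries, and Slc5a3, a sodium/myo-inositol carrier, had 136, 28 and 74 and then 14, 21 and 47. The groups overlapped for both, with adjusted p-values in limma of 0.413 and 0.389 without the replicate block. In pairs of libraries with the same replicate number, Slc9a9 was higher in 3 of 3 and Slc5a3 lower in 3 of 3. With the block their adjusted p-values in limma were 0.0226 and 0.131. Those of Kcne4, Slc1a5 and Slc24a3 with the block were 0.0364, 0.0573 and 0.0521.

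The 5 protein-coding genes whose pattern over the 6 libraries was most like that of Fxyd2 were Fdps, Scd1, Mcpt8, Cnn1 and Lmod1. Likeness was the Euclidean distance between values divided by each gene's untreated mean, over genes with at least 30 normalised counts in each untreated library, and it was 0.345 to 0.434 for these 5. They share the libraries and their scaling with Fxyd2. Fdps, an enzyme of isoprenoid and cholesterol synthesis, had 150, 126 and 168 in untreated and 39, 21 and 20 in treated libraries. Cnn1, the smooth muscle protein calponin, had 240, 117 and 231 and then 23, 1 and 27. Like Fxyd2 it was near 0 in amisulpride replicate 2, but it stood above the floor in the other 2 treated libraries. Treated means of the other 4 genes were 0.180 to 0.211 of the untreated mean. Low treated values in all 5 follow from their choice by likeness to Fxyd2. Fxyd2 had the lowest ratio of treated to untreated mean of the 8692 genes searched, so it lay below the 5 by construction.

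**Figure D4:**
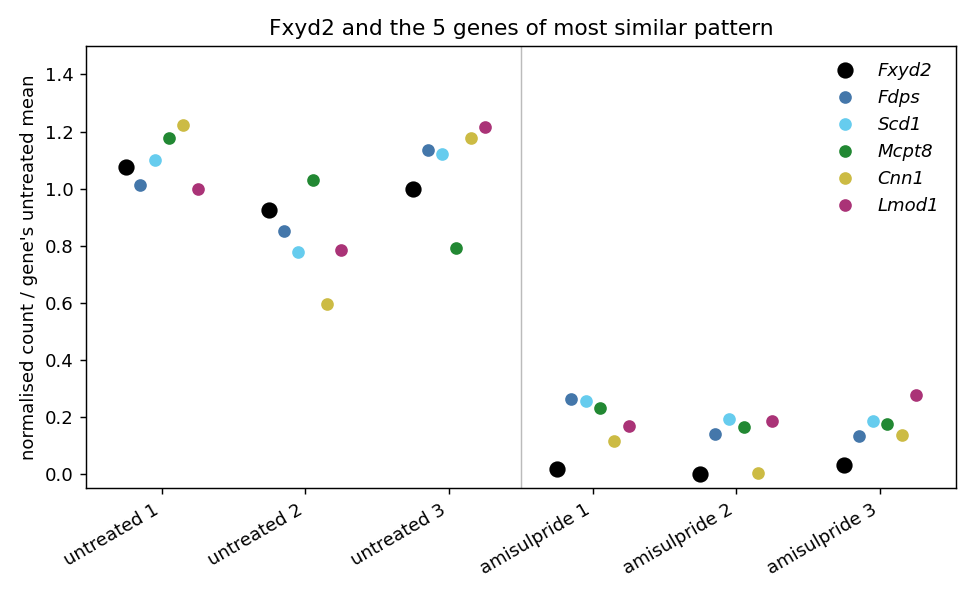
Normalised count divided by the gene's untreated mean (vertical axis) in the 6 libraries for Fxyd2 (black) and the 5 genes of most similar pattern (colours, offset sideways). Fxyd2 lies at or next to 0 in the 3 treated libraries, where Fdps, Scd1, Mcpt8 and Lmod1 stay above it.

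Markers of the tissues in which these subunits are best known were examined beside the results. Of 15 renal and epithelial markers, 7 were at 0 in every library, among them the defining markers Umod, Krt8, Krt18 and Cdh16, and the summed level was 81 to 227 in untreated and 60 to 125 in treated libraries, mostly from Aqp1, the only 1 that passed the filter. Aqp1, a water channel also made by other cell types, had 123, 207 and 55 and then 60, 110 and 41 normalised counts. Its groups overlapped, and the treated value was lower in 3 of 3 pairs, as for Fxyd2. The epithelial keratin gene Krt19 had 8, 9 and 8 in untreated and 4, 3 and 2 in treated libraries. It was low in both groups and did not pass the filter, with only 1 treated library above the floor. Its groups did not overlap, as for 16.5% of the genes tested, and it was also lower in 3 of 3 pairs. Cdh1, which encodes the epithelial adhesion protein E-cadherin, had 10, 3 and 4 and then 3, 1 and 2. It was lower in 3 of 3 pairs, but above the floor in only 3 libraries. Treated means of Slc12a1 (4, 3 and 9, then 5, 3 and 4) and Epcam (0, 0 and 1, then 0, 0 and 0) were also lower. The Slc12a1 groups overlapped, and Epcam never exceeded the floor. Treated means of Pax8 (0, 2 and 3, then 5, 0 and 4), Aqp2 (5, 3 and 1, then 5, 1 and 7) and Slc12a3 (0, 0 and 0, then 0, 7 and 0) were higher, with overlap between the groups. The part of renal or epithelial cells in the Fxyd2 values was not tested. Of 12 sensory neuron and glia markers, 3 were at 0 in every library, with sums of 120 to 161 and 146 to 276, mostly from Tubb3. Of 9 muscle markers 3 were at 0, with sums of 16 to 55 and 24 to 45. In both lists only Avil (0, 0 and 0, then 3, 5 and 7) and Mylpf (6, 2 and 0, then 7, 16 and 11) did not overlap. Both were higher in treated libraries, and neither passed the filter. Of the 8 myeloid markers, 3 had a higher and 5 a lower mean log2 value in treated SFs. Adgre1 and Cd68 were higher in 3 of 3 pairs, and Ptprc and Cd14 lower in 3 of 3. Csf1r and Cd14 were lower at the study's thresholds, against 3.01% of all genes tested, and the Csf1r groups overlapped. The part of neuron, glia, muscle or myeloid cells in the Fxyd2 and Fxyd5 values was not tested either.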

How the data were processed

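Expression was measured by 3′ mRNA sequencing (QuantSeq, Ion Proton) in 3 untreated and 3 amisulpride libraries, which the study's methods call biological replicates. The authors mapped reads to mm10 with TopHat2 and Bowtie2, counted them per gene with GenomicRanges and normalised them with DESeq through metaseqr (versions not given in the sources used here). The deposited values are a score: normalised counts that the authors rounded to whole numbers. The authors' fold changes and p-values, and 12 further columns of values per library, were not used.

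The comparison of treated with untreated libraries used limma-trend (limma 3.58.1, R 4.3.3, two-sided) on log2(normalised count + 1) over the 12614 genes that reached 10 in at least 3 libraries, with Benjamini-Hochberg adjustment across them. The fit was tested on simulated data. Depth was approximated from the spacing of low values by maximum likelihood. Floors are 3 reads, and intervals cover counting error only.

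Samples with the same replicate number deviated together (correlations of 0.229, 0.240 and 0.201), so the numbers were taken as pairs. The main fit did not include this pairing, and SEs and p-values come from it unless the block is named. The fit with the replicate number as a block was an alternative. Others were a pseudocount of 5, no filter, quantile normalisation and leaving out each library.

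The 8 genes and all lists were chosen with earlier results of these data known. Named were all 8, every other pump subunit, in each other related list the genes past the study's thresholds (at most 3 in each direction by lowest p), the genes wholly within 250 kb of Fxyd2 that passed the filter, and the 5 genes nearest to Fxyd2 in pattern. Il10ra, RP24-166B2.5, Mir7050, Nme7 and the marker genes were named outside this rule, after their values were seen. Some genes that the rule or the lists hold are not reported here. Gene spans were the same in GENCODE vM21 as in the table for all 8 genes.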

Additional observations from a re-analysis of the deposited data

How the results depend on the processing

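The direction of the log2 difference of Fxyd2, Fxyd5, Fxyd1, Atp1b1 and Atp1b3 was the same under every alternative tried. The replicate block and the fit without the filter could not change it, since both leave the log2 difference of a gene as it was. For Fxyd2 a pseudocount of 5 gave -4.20, by construction, since it raises values near 0. Leaving out single libraries gave -6.12 to -4.96 for Fxyd2, -1.42 to -0.89 for Fxyd5, 0.25 to 1.04 for Fxyd1, 1.35 to 2.17 for Atp1b1 and -0.42 to -0.12 for Atp1b3. Across all genes, the number with an adjusted p under 0.05 was 36 and became 57 with a pseudocount of 5, 57 without the filter, 66 with quantile normalisation and 263 with the replicate block, and it was 0 to 120 when single libraries were left out (0 without untreated replicate 2 or 3, 1 without untreated replicate 1, 18, 6 and 120 without amisulpride replicates 1, 2 and 3). The number at the study's thresholds was 719 and became 1313 without the filter, with 606 to 1034 when single libraries were left out. Among the 6 related lists, 5 genes passed these thresholds, 9 without the filter and 3 to 6 when single libraries were left out (3 without amisulpride replicate 2). With the replicate block, 2 of their genes had an adjusted p under 0.05, against 0 without it. The block leaves each log2 difference as it was, by construction, and can change only SEs and p-values. Tmprss13 turned to 0.17 without untreated replicate 1, in a range of -0.46 to 0.17 over the left-out libraries. The cause of these differences was not tested. Genes with a few reads, such as Fxyd6 and Fxyd7, are limited by depth.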
